A study of Mus musculus with 121 samples.

Results

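This account covers the mouse fibrosarcoma nfsa between day 5 and day 20 after a single 30 Gy dose of carbon ions. It rests on 4 arrays, 2 of day 5 and 2 of day 20, chosen by their titles from the 40 carbon-ion and 81 gamma-ray arrays of the series. nfsa is labelled as a fibrosarcoma that arose spontaneously in a C3H/He mouse. The study transplanted it into the hind leg of male C3H/HeMs mice, and the tumour was irradiated locally. All 4 arrays therefore come from irradiated tumours of the same transplanted line in the same host, and the labels give the day of sampling as the difference between the groups. Array slides and dates are not given in the sources used here, so a batch that follows the day cannot be told apart from it. The mice's age is not given in the sources used here, and neither is whether the 2 arrays of a day hold different animals. If they do not, the spread between the 2 arrays of a day holds no difference between animals. The p-values use a spread pooled over the tumour groups of both experiments, which need not be that of these arrays. No unirradiated nfsa array of the carbon experiment was used (0 arrays), so each value below is a difference between 2 irradiated times, not an effect of radiation. For comparison, the carbon arrays of days 5 and 20 of 4 other transplanted tumours were used: a radiation-induced C3H fibrosarcoma (4 arrays, titled c_8520_30_d5 and c_8520_30_d20), and the mammary carcinomas mmca and mca4 with the squamous cell carcinoma nrs1 (12 arrays). The 20 nfsa arrays of the gamma-ray experiment (0, 30, 50 or 70 Gy, day 1 to day 9) give levels in the same tumour.

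Carbon ions are heavy charged particles that deposit energy densely along their track and break both DNA strands in clusters. Such breaks activate the transcription factor p53, which raises cell cycle inhibitors and death genes. A solid tumour also holds blood vessels, fibroblasts and immune cells, and RNA of the whole tumour reports on all of them. In poorly oxygenated tissue the transcription factor HIF accumulates and raises genes for glycolysis, lactate export, pH control and vessel growth.

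Levels are log2 of the deposited intensity, and a change is the day 20 mean minus the day 5 mean on that scale, so a change of 1 is a 2-fold change. Each is given with the standard error (SE) of a limma model over all arrays, and a gene with an adjusted p under 0.05 counts as risen or fallen. The 4 arrays were alike in quality: 0.541 to 0.704% of probes had no value and 14.5 to 15% lay below the floor. Across genes, which are no independent replicates, the 2 arrays of a day correlated at r = 0.9978 on both days, and arrays of different days at 0.9723 to 0.9729. The median SD of a gene between the 2 arrays was 0.0601 at day 5 and 0.0671 at day 20. Of 12961 genes tested, 1568 rose and 1009 fell, which is 19.9% called (12.1% risen and 7.78% fallen). With floored missing values and quantile normalization, 1020 rose and 1020 fell. Leaving out any 1 of the 4 arrays left 861 to 1047 risen and 627 to 651 fallen genes. Among the called genes, 274 rose and 338 fell by at least 2-fold. The median change over all genes was 0.06. Fitted on the 40 carbon arrays alone, 2947 rose and 2159 fell.

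The labelled tissue type was checked against marker genes. Vim, Col1a1, Col1a2, Prrx1, Twist1 and Pdgfra, which mark mesenchymal cells, lay higher on all 4 nfsa arrays than on all carcinoma carbon arrays with a value (12, or 11 for Pdgfra). Vim ranged from 7.40 to 7.76 in nfsa and from 5.60 to 6.39 in the carcinomas, and Col1a1 from 4.93 to 5.19 and from 0.98 to 4.03. The epithelial genes Epcam, Cdh1, Krt5, Krt14 and Trp63 lay lower on all 4 nfsa arrays, with Epcam at -1.09 to 0.05 in nfsa and 6.70 to 7.53 in the carcinomas. Col3a1 and Krt8 overlapped. Cdh11, a cadherin of mesenchymal cells, went the other way and lay below the carcinomas. Neither Vim (change 0.03 ± 0.17, adjusted p = 0.935) nor Col1a1 (0.17 ± 0.52, adjusted p = 0.874) passed the test between the days.

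The 12 largest rises ran from Mgarp to Rnf152, and those with a well-known function are described by their role. Mgarp, a mitochondrial protein gene induced by HIF, stood at 0.81 and 0.88 at day 5 and 4.86 and 4.91 at day 20. Both day 20 arrays lay far above both day 5 arrays, a rise of 4.04 ± 0.29 (adjusted p = 8.28e-19) or 16.4-fold. Cxcl13, a chemokine that draws B cells, stood at 0.50 and 0.37 at day 5 and 4.53 and 4.41 at day 20 and rose by 4.03 ± 0.71 (adjusted p = 8.97e-06). Pgf, which encodes placental growth factor, a relative of VEGF, stood at 0.09 and 0.30 at day 5 and 3.91 and 3.85 at day 20 and rose by 3.69 ± 0.26 (adjusted p = 8.28e-19). In each of these genes the 2 arrays of a day differed by far less than the days did. S100g, a calcium-binding protein gene, rose by 3.10 ± 0.49 (adjusted p = 7.83e-07), and Rnf152 by 2.64. F3, which encodes tissue factor, the starter of blood clotting, stood at 1.00 and 0.94 at day 5 and 3.68 and 3.65 at day 20 and rose by 2.69 ± 0.22 (adjusted p = 6.11e-16). Mmp12, a macrophage elastase gene, gave 2.82 ± 0.53 from 1 day 20 array, since the other had no value, and it turned to -0.31 (adjusted p = 0.952) with floored missing values and quantile normalization.

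**Figure D1:**
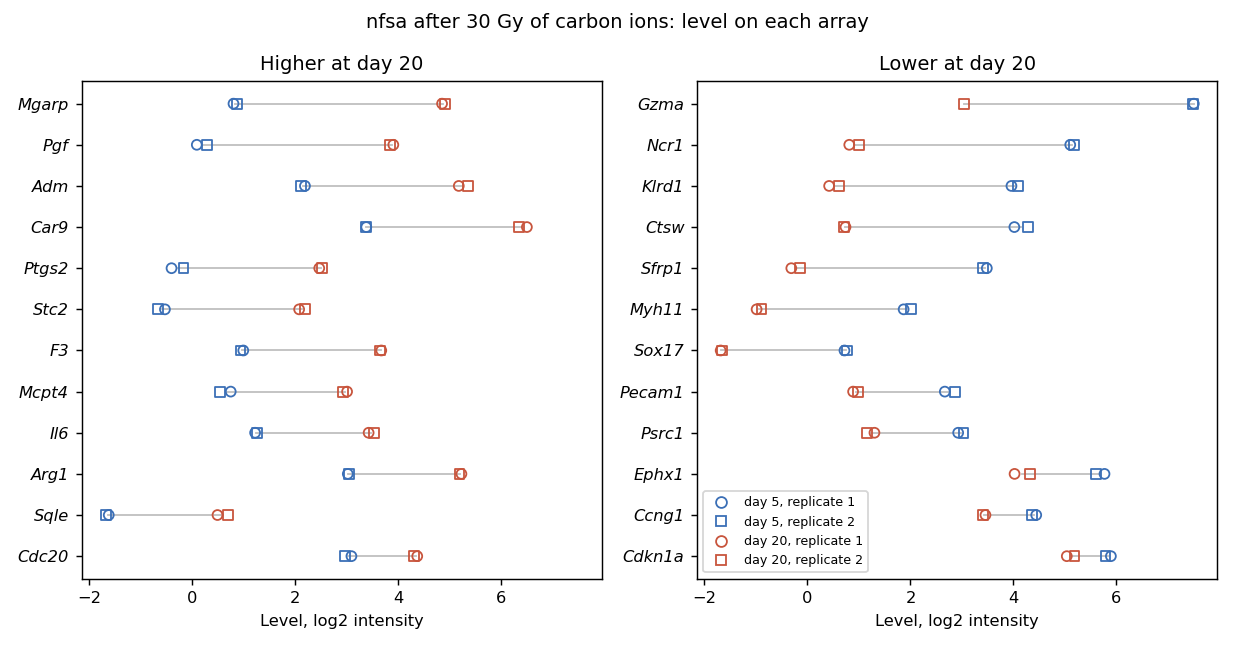
Level (log2 intensity) of 12 genes that were higher and 12 that were lower at day 20, on each of the 4 nfsa carbon arrays; circles are replicate 1, squares replicate 2, blue day 5 and red day 20, and the grey line joins the means of the days. The arrays of a day sit close together beside the gap between days, as for Mgarp at 0.81 and 0.88 against 4.86 and 4.91; Gzma has 1 value at day 20.

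Genes of the hypoxia response rose almost as a block. Of 22 tested, 19 rose and 0 fell, with a median change of 1.49 against 0.06 over all genes. Adm, which encodes the vessel-widening peptide adrenomedullin, stood at 2.19 and 2.12 at day 5 and 5.18 and 5.36 at day 20, a rise of 3.12 ± 0.40 (adjusted p = 4.35e-09). Car9, a carbonic anhydrase gene that controls the pH at the surface of tumour cells, stood at 3.38 and 3.38 at day 5 and 6.50 and 6.34 at day 20 and rose by 3.04 ± 0.32 (adjusted p = 4.83e-12). Stc2, a secreted glycoprotein gene, rose by 2.72 ± 0.31 (adjusted p = 1.42e-10), and Ndrg1, a stress-induced gene, by 2.37 ± 0.27 (adjusted p = 1.60e-10). Bnip3, which drives the removal of mitochondria, stood at 4.51 and 4.68 at day 5 and 7.03 and 6.88 at day 20, a rise of 2.36 ± 0.25 (adjusted p = 1.25e-11). In all 5 genes both day 20 arrays lay above both day 5 arrays. The glucose transporter gene Slc2a1, the oxygen sensors Egln1 and Egln3, the collagen hydroxylase genes P4ha1, P4ha2 and Plod2 and the growth factor gene Vegfa were also among the 19. Vegfa, the main signal for vessel growth, rose by 1.32 ± 0.27 (adjusted p = 0.000161). Bnip3, Ddit4 and Vegfa also stand in the BCL2, p53 and growth factor lists. The members that did not pass were Hmox1 (0.50), Angptl4 (-0.15) and Pfkfb4 (-0.28).

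Glycolysis genes went the same way, with 11 of 15 risen, 0 fallen and a median of 0.91. Slc16a3, which encodes the transporter that exports lactate, stood at 1.74 and 1.58 at day 5 and 4.14 and 4.29 at day 20 and rose by 2.55 ± 0.19 (adjusted p = 3.94e-18). Pfkl, a phosphofructokinase gene at the committed step of glycolysis, rose by 1.80 ± 0.17 (adjusted p = 8.05e-14). Aldoc, an aldolase gene, rose by 1.49 ± 0.21 (adjusted p = 1.10e-07), and Tpi1, the triose phosphate isomerase gene, by 1.50 ± 0.21 (adjusted p = 5.74e-08). A second probe of Slc16a3 gave 0.37 and one of Tpi1 gave 0.12, so the size of these changes depends on the probe. Pdk1, whose product turns pyruvate away from the mitochondria, was among the 11. Of 34 respiratory chain genes 1 rose (Cox8a) and 0 fell, with a median of 0.13. Cox8a lost its call without day 5 replicate 1 or day 20 replicate 1, and under quantile normalization. With floored missing values and quantile normalization, 6 glycolysis genes rose, without Pdk1.

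HIF binds the core letters ACGTG or GCGTG, and 4 promoters of risen hypoxia and glycolysis genes are printed to show where these letters stand. Each line holds the 120 bases before the transcription start (RefSeq, GRCm38.p6), 5′ to 3′ on the gene's strand, with the core letters of either strand in capitals. Car9 lies at chr4:43506906-43507025 (plus strand), Adm at chr7:110627537-110627656 (plus strand), Bnip3 at chr7:138909507-138909626 (minus strand) and Slc16a3 at chr11:120948947-120949066 (plus strand).
Car9: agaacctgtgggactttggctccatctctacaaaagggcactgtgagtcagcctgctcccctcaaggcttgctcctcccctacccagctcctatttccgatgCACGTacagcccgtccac
Adm: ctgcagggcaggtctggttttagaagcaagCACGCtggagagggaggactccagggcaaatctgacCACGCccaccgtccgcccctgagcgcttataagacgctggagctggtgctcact
Bnip3: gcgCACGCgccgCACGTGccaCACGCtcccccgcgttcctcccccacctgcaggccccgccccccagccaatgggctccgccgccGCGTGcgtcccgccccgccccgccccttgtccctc
Slc16a3: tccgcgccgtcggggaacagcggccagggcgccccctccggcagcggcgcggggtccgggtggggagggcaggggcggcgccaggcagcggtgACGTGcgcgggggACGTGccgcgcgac
Bnip3 held 5 matches in these bases, where neighbouring matches overlap, Adm and Slc16a3 2 each and Car9 1. Promoters of 17 of the 22 tested hypoxia genes were in the table, 1 for each gene, and 15 of them (88.2%) held ACGTG or GCGTG on either strand within 250 bases before the start. Of 15 glycolysis genes 12 did (80.0%), and of 33 mitosis genes 22 (66.7%). The share was 52.6% among all 10409 tested genes with a listed promoter and 38.6% among all 27025 promoters. A match of letters is a description and no evidence of binding.

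Genes of cell division also rose. Of 40 mitosis genes tested 36 rose and 0 fell, and in all 40 both day 20 arrays lay above both day 5 arrays, where 43.6% of all genes did so and 27.6% did the reverse. Their median change was 0.89. With floored missing values and quantile normalization some of the 36 calls were lost, among them those of Aurka, Bub1b and Cenpf. Cdc20, which activates the ligase that starts anaphase, stood at 3.10 and 2.97 at day 5 and 4.37 and 4.31 at day 20 and rose by 1.31 ± 0.18 (adjusted p = 2.78e-08). Cdc25c, the phosphatase that switches on the mitotic kinase Cdk1, rose by 1.32 ± 0.20 (adjusted p = 3.21e-07). Plk1, a kinase of the spindle poles, stood at -0.83 and -0.62 at day 5 and 0.46 and 0.48 at day 20, a rise of 1.20 ± 0.20 (adjusted p = 3.15e-06). Nuf2, a kinetochore gene, rose by 1.15 ± 0.18 (adjusted p = 3.98e-07), and Top2a, which untangles DNA before division, by 0.81 ± 0.18 (adjusted p = 0.000466). The proliferation marker Mki67 was left out by the filter on dim or missing probes.

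Genes of S phase had a lower median change. Of 35 DNA replication genes 13 rose and 0 fell, with a median of 0.42, and the changes of the risen members ran from 0.41 to 0.91. Tk1, a thymidine kinase gene, rose by 0.91 ± 0.17 (adjusted p = 4.43e-05), Rrm2, a subunit of the enzyme that makes deoxynucleotides, by 0.75 ± 0.19 (adjusted p = 0.00234), and Orc1, which marks replication origins, by 0.74 ± 0.19 (adjusted p = 0.00253). Leaving out 1 array left 5 to 8 risen replication genes and 32 to 35 risen mitosis genes. Among 26 DNA repair and checkpoint genes 6 rose, 0 fell and the median was 0.28, and 2 to 6 rose when 1 array was left out. Blm, a helicase gene of recombination repair, rose by 0.57 and Brca2, a gene of the same repair pathway, by 0.54. Both calls were lost without certain arrays, that of Blm without day 5 replicate 2 or day 20 replicate 1 (adjusted p up to 0.0633), and that of Brca2 without day 5 replicate 1 or day 20 replicate 2 (adjusted p up to 0.52 over the settings).

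Promoters of mitosis genes are known for 2 elements, the CHR with the letters TTTGAA and the CCAAT box. They are printed for 4 members in the same way as above (120 bases before the start, RefSeq GRCm38.p6, both elements in capitals on either strand). Cdc20 lies at chr4:118437344-118437463 (minus strand), Cdk1 at chr10:69352913-69353032 (minus strand), Ccnb2 at chr9:70421555-70421674 (minus strand) and Plk1 at chr7:122159315-122159434 (plus strand).
Cdc20: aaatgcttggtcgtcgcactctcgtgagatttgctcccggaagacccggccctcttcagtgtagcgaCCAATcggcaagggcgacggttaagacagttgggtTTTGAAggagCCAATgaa
Cdk1: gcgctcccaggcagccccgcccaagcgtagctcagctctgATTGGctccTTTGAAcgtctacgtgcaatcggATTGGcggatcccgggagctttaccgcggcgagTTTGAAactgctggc
Ccnb2: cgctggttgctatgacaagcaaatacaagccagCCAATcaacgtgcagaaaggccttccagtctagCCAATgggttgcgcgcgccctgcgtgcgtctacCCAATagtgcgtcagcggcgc
Plk1: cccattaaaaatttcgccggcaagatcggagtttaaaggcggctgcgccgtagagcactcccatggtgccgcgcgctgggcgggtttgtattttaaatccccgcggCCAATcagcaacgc
Cdc20 and Cdk1 held both elements in these bases, and Ccnb2 and Plk1 the CCAAT box. Promoters of 33 of the 40 mitosis genes were in the table. CCAAT was found within 250 bases before the start in 25 of them (75.8%), against 35.8% of all tested genes and 34.5% of all promoters in the table. TTTGAA was found in 11 (33.3%), against 11.5% and 16.3%, and both elements in 10 (30.3%), against 4.30% and 5.73%. These shares were not particular to mitosis genes: TTTGAA stood in 4 of 13 T and NK cell promoters (30.8%) and 3 of 10 endothelial ones (30.0%). Both elements stood in 23.1% and 20.0% of them. In the hypoxia, glycolysis and DNA replication lists TTTGAA stood in 11.8%, 6.67% and 13.8%. All printed promoters were chosen with the changes known, and a match of letters is no evidence of binding.

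Cholesterol synthesis was another pathway whose genes rose together, with 13 of 17 tested risen, 0 fallen and a median of 0.83. Sqle, which encodes squalene epoxidase, stood at -1.62 and -1.66 at day 5 and 0.50 and 0.71 at day 20 and rose by 2.24 ± 0.25 (adjusted p = 7.44e-11). Idi1 and Fdps, enzymes that build the farnesyl unit, rose by 1.89 ± 0.31 (adjusted p = 2.73e-06) and 1.88 ± 0.23 (adjusted p = 8.43e-10). Srebf2, the transcription factor that switches on the pathway, stood at 0.29 and 0.26 at day 5 and 1.84 and 1.71 at day 20, a rise of 1.50 ± 0.18 (adjusted p = 2.74e-10). Mvk, Pmvk, Ebp and Dhcr7 did not pass, with values of -0.03 to 0.31. Among the risen members, Sc5d had a value on 1 day 20 array only, and its change turned from 0.83 to -2.45 (adjusted p = 0.0303) with floored missing values and quantile normalization.

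Targets of p53 fell more often than they rose. Of 32 tested, 16 fell, 2 rose and 14 did not pass, with a median of -0.50. Psrc1, a spindle-associated gene induced by p53, stood at 2.93 and 3.03 at day 5 and 1.30 and 1.15 at day 20 and fell by 1.75 ± 0.19 (adjusted p = 3.54e-11). Ephx1, an epoxide hydrolase gene, stood at 5.77 and 5.61 at day 5 and 4.02 and 4.33 at day 20, a fall of 1.51 ± 0.19 (adjusted p = 1.51e-09). Ccng1, the cyclin G1 gene, stood at 4.44 and 4.37 at day 5 and 3.46 and 3.40 at day 20 and fell by 0.98 ± 0.17 (adjusted p = 8.31e-06). Mdm2, the gene of the ubiquitin ligase for p53, fell by 0.72 ± 0.18 (adjusted p = 0.00185). Cdkn1a, the cell cycle inhibitor p21, stood at 5.89 and 5.79 at day 5 and 5.04 and 5.19 at day 20, a fall of 0.73 ± 0.19 (adjusted p = 0.00357) that was lost without day 5 replicate 1 or day 20 replicate 1 (adjusted p up to 0.0601). Bbc3, which encodes the death protein PUMA, fell by 0.56 ± 0.13 (adjusted p = 0.00101). Trp53inp1 gave -0.11 (adjusted p = 0.578). Zmat3, an RNA-binding protein gene, gave -1.23 from 1 day 20 value, and -5.17 with floored missing values and quantile normalization. The 2 members that rose were Gadd45a (0.84), a growth arrest gene whose call was lost with floored missing values and quantile normalization (adjusted p = 0.592), and Ddit4, an inhibitor of mTOR that is also induced by low oxygen, which rose by 2.03 ± 0.20 (adjusted p = 1.04e-12). Leaving out 1 array left 10 to 14 fallen targets.

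Genes of natural killer cells and cytotoxic T cells were among the 12 largest falls, beside the Wnt antagonist gene Sfrp1 and the membrane protein gene Itm2a. In bulk tumour RNA, fewer cells of a type and less RNA per cell cannot be told apart. Of 21 T and NK cell genes tested 15 fell and 0 rose, and the median change was -2.12. The mean level of the 21 genes, over those with a value, was 3.20 and 3.17 on the day 5 arrays and 1.11 and 1.18 on the day 20 arrays. Ncr1, the NK cell receptor NKp46, stood at 5.10 and 5.18 at day 5 and 0.81 and 1.00 at day 20, a fall of 4.24 ± 0.30 (adjusted p = 8.28e-19) or 18.8-fold. Gzma, a granule protease of killer cells, stood at 7.50 and 7.49 at day 5 and 3.05 on the day 20 array that had a value and fell by 4.45 ± 0.56 (adjusted p = 2.04e-09). With floored missing values and quantile normalization the change of Gzma was -7.93. Klrd1 and Klrc1, the CD94 and NKG2A receptor chains, fell by 3.50 ± 0.43 (adjusted p = 1.01e-09) and 3.18 ± 0.44 (adjusted p = 2.82e-08). Klra3, a Ly49 receptor gene, fell by 3.52 ± 0.39 (adjusted p = 3.54e-11), Klre1, another NK receptor gene, by 3.71 ± 0.36 (adjusted p = 3.76e-13), and the killer cell protease gene Ctsw by 3.43 ± 0.28 (adjusted p = 6.34e-16). Cd7, a surface protein of T and NK cells, stood at 3.03 and 3.00 at day 5 and -0.08 and -0.13 at day 20. In all 8 genes every day 5 array lay above every day 20 array with a value.

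Several T cell genes did not pass the test. Cd247, Cd6 and Cd3g gave -0.09, -0.31 and -0.68 and did not pass, and neither did Cd8b1 (-0.63) or Thy1 (-0.52), while Cd4 gave -0.48, a call lost whichever of the 4 arrays was left out and under quantile normalization (adjusted p up to 0.309). The signalling kinase gene Zap70 and the effector genes Prf1 and Gzmb were among the 15 that fell. Of 19 TNF superfamily genes 5 fell, 3 rose (Tnfsf11, Tnfsf9 and Tnfrsf12a) and the median was 0.04. The Tnfrsf12a call was lost whichever of the 4 arrays was left out (adjusted p up to 0.172 over the settings). Ltb, the lymphotoxin beta gene, fell by 2.80 ± 0.38 (adjusted p = 2.11e-08), Fasl, the death ligand, by 2.53 ± 0.48 (adjusted p = 3.58e-05), Cd27 by 1.99 ± 0.52 (adjusted p = 0.00282) and Tnfrsf18, the GITR gene, by 1.69 ± 0.27 (adjusted p = 1.33e-06). Il18r1, a receptor for the NK-activating cytokine IL-18, stood at 1.77 and 1.62 at day 5 and -1.23 and -1.14 at day 20 and fell by 2.88 ± 0.34 (adjusted p = 2.80e-10). Cd209a, a lectin gene of dendritic cells, fell by 2.89 ± 0.39 (adjusted p = 1.35e-08). The pan-leukocyte gene Ptprc (CD45) stood at 4.82 and 5.08 at day 5 and 3.66 and 3.75 at day 20 and fell by 1.25 ± 0.29 (adjusted p = 0.000767).

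Endothelial genes were the other group that fell widely, with 15 of 20 tested fallen, 0 risen and a median of -1.34. Their mean level was 2.33 and 2.38 on the day 5 arrays and 1.19 and 1.24 on the day 20 arrays. Sox17 and Sox18, transcription factors of blood vessel cells, fell by 2.42 ± 0.23 (adjusted p = 1.35e-13) and 2.11 ± 0.27 (adjusted p = 2.12e-09). Pecam1 (CD31), a junction protein of vessel walls, stood at 2.67 and 2.86 at day 5 and 0.89 and 0.99 at day 20, a fall of 1.83 ± 0.31 (adjusted p = 5.20e-06). Vwf, the von Willebrand factor gene, stood at 2.17 and 2.46 at day 5 and 0.47 and 0.52 at day 20, a fall of 1.82 ± 0.33 (adjusted p = 1.53e-05). The VEGF receptor gene Kdr, the angiopoietin receptor gene Tek, Emcn, Cldn5 and Plvap were also among the 15. Lyve1 of lymphatic vessels (0.46), Erg, Tal1, Vcam1 and Sele did not pass. Pgf and Vegfa, whose products act on these cells, moved the other way, as given above.

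Smooth muscle and pericyte genes split. Of 12 tested 6 rose and 4 fell, and 2 to 3 fell when 1 array was left out. Actg2 and Acta2, the smooth muscle actins that are also made by activated fibroblasts, rose by 1.94 ± 0.38 (adjusted p = 5.56e-05) and 1.78 ± 0.29 (adjusted p = 1.50e-06), and Pdgfrb, the PDGF receptor of pericytes and fibroblasts, by 1.06 ± 0.28 (adjusted p = 0.00329). Myh11, the smooth muscle myosin, stood at 1.87 and 2.02 at day 5 and -0.99 and -0.89 at day 20 and fell by 2.88 ± 0.40 (adjusted p = 3.07e-08), and Cnn1, calponin, fell by 1.77 ± 0.31 (adjusted p = 8.51e-06). Fat cell genes fell in 3 of 8, and in 1 of 8 whichever array was left out, with Pparg down by 1.35 ± 0.33 (adjusted p = 0.00146) and Adipoq, the adiponectin gene, at 0.40 and 0.45 at day 5 and -1.81 and -1.71 at day 20. The Adipoq call was lost whichever of the 4 arrays was left out (highest adjusted p = 0.0753).

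Inflammatory genes of neutrophils and stromal cells rose: 12 of 19 were higher and 0 lower, with a median of 1.16. Ptgs2, the cyclooxygenase 2 gene, stood at -0.40 and -0.16 at day 5 and 2.47 and 2.53 at day 20, a rise of 2.78 ± 0.31 (adjusted p = 7.05e-11). Il6, a cytokine gene of inflammation, stood at 1.23 and 1.27 at day 5 and 3.43 and 3.53 at day 20 and rose by 2.24 ± 0.35 (adjusted p = 8.20e-07). S100a9, a subunit of the neutrophil protein calprotectin, stood at 4.75 and 4.59 at day 5 and 6.71 and 6.65 at day 20 and rose by 2.01 ± 0.45 (adjusted p = 0.000504). The neutrophil-attracting chemokines Cxcl1, Cxcl2, Cxcl3 and Cxcl5 were among the 12. Cxcl3 lost its call without day 20 replicate 1, and Cxcl5 without day 5 replicate 2 or either day 20 array (adjusted p up to 0.0851). Csf3r, the neutrophil growth factor receptor gene, did not pass (-0.38). Ppbp, a platelet chemokine gene, rose by 1.84 ± 0.33 (adjusted p = 1.06e-05). Ccl3, a chemokine of monocytes, was the only riser of 13 CC chemokine genes; it gave 1.30 and lost its call whichever of the 4 arrays was left out (highest adjusted p = 0.0657).

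Mast cell genes rose in 7 of 9 tested, with a median of 1.81. Mcpt4 and Mcpt2, proteases of mast cell granules, stood at 0.75 and 0.55 at day 5 and 3.01 and 2.94 at day 20, and at 2.03 and 2.03 at day 5 and 4.35 and 4.33 at day 20. They rose by 2.32 ± 0.35 (adjusted p = 3.33e-07) and 2.31 ± 0.20 (adjusted p = 4.23e-15). Cpa3, mast cell carboxypeptidase, rose by 2.23 ± 0.43 (adjusted p = 4.80e-05), and Hdc, which makes histamine, by 1.81 ± 0.34 (adjusted p = 3.96e-05). Kit, the receptor on which mast cells depend, gave -0.80, a call lost whichever of the 4 arrays was left out (highest adjusted p = 0.0856), and Tpsb2 did not pass (0.06). Fcer1a, Ms4a2 and Mcpt1 were not tested.

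Macrophage genes showed no common direction: 3 of 25 rose, 4 fell (1 to 3 when 1 array was left out) and the median was -0.22. The mean level of the 25 genes was 4.97 and 5.00 at day 5 and 4.89 and 4.95 at day 20. C1qa, C1qb, C1qc, Apoe and Lyz2 gave 0.11 to 0.22 and did not pass. Arg1, the arginase gene of wound-healing macrophages, stood at 3.03 and 3.05 at day 5 and 5.23 and 5.19 at day 20 and rose by 2.17 ± 0.34 (adjusted p = 8.00e-07). Chil3, a chitinase-like gene, fell by 2.01 ± 0.39 (adjusted p = 5.03e-05). Ccr2, the receptor of recruited monocytes, fell by 1.20 ± 0.35 (adjusted p = 0.00784), a call lost without day 5 replicate 2 or either day 20 array (adjusted p up to 0.0801). Cxcl13 was the only riser of 12 B and plasma cell genes, and the B cell genes Cd79a, Cd79b and Pax5 gave 0.01 to 0.16 and did not pass.

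Few interferon-stimulated genes passed the test, with 1 of 38 risen, 4 fallen (1 to 3 when 1 array was left out) and a median of -0.14. Rsad2, which encodes the antiviral protein viperin, stood at 0.78 and 0.70 at day 5 and 2.93 and 2.79 at day 20 and rose by 2.12 ± 0.41 (adjusted p = 5.38e-05). Cxcl9, a chemokine that draws T cells, stood at 4.73 and 4.88 at day 5 and 2.85 and 2.90 at day 20, a fall of 1.93 ± 0.46 (adjusted p = 0.00105). Oas2, an antiviral RNA sensor, fell by 0.89 ± 0.24 (adjusted p = 0.00408), a call lost without day 5 replicate 1, and with floored missing values and quantile normalization (adjusted p = 0.482). Of 10 MHC class II genes 0 rose and 2 fell, or 1 fell whichever array was left out. H2-Oa fell by 1.19 ± 0.26 (adjusted p = 0.00037), and Ciita, the activator of the class, by 1.16 and its call was lost whichever of the 4 arrays was left out (highest adjusted p = 0.128). The class II chains H2-Aa, H2-Ab1 and H2-Eb1 and the invariant chain gene Cd74 gave -0.15 to 0.01. Complement genes fell in 4 of 10, or in 1 to 2 when 1 array was left out, with Cd55, which protects cells from complement, down by 1.44 ± 0.39 (adjusted p = 0.00413).

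**Figure D2:**
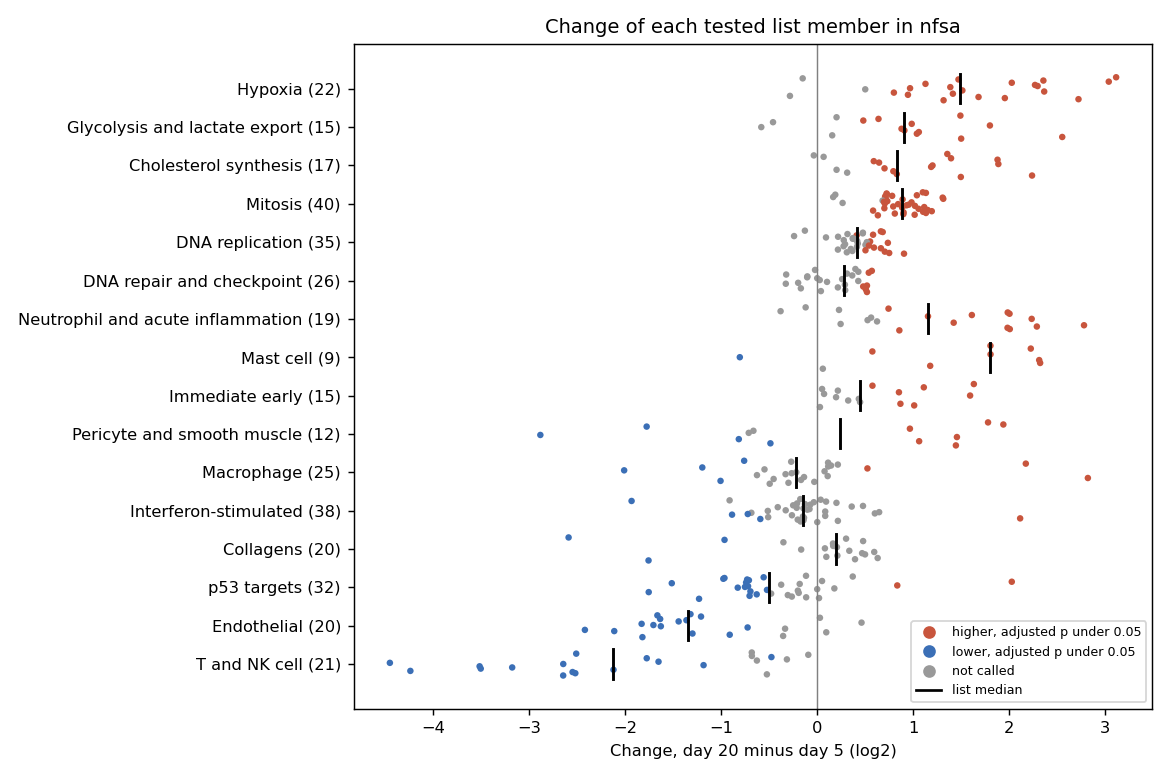
Change from day 5 to day 20 (log2) of every tested member of 16 gene lists in nfsa; each point is a gene, red where it rose, blue where it fell and grey where it did not pass, the black line is the list's median and the number of members stands beside the name. Hypoxia (median 1.49) and mast cell genes (1.81) lie to the right, endothelial (-1.34) and T and NK cell genes (-2.12) to the left, and interferon-stimulated genes (-0.14) around 0.

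Few genes of the fibrous matrix passed the test. Of 20 collagen genes 0 rose and 3 fell, and of 27 other matrix genes 3 rose and 0 fell, with medians of 0.20 and 0.21. Whichever array was left out, 1 of the 27 rose. Col11a1, a cartilage-type collagen gene, stood at 0.89 and 0.99 at day 5 and -1.55 and -1.75 at day 20 and fell by 2.59 ± 0.45 (adjusted p = 6.79e-06), and Col8a2, a basement membrane collagen gene, fell by 1.76 ± 0.40 (adjusted p = 0.000721). Ccn2 (CTGF), a matrix-inducing factor, rose by 1.12 ± 0.29 (adjusted p = 0.00257). Cdh11 stood at -0.78 and -0.84 at day 5 and at the floor of -2.98 on both day 20 arrays, which makes it at least 4.5-fold lower. Twist1 and Twist2, transcription factors of mesenchymal cells, rose by 0.72 ± 0.16 (adjusted p = 0.000438) and 0.92 ± 0.21 (adjusted p = 0.000728).

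In the signalling lists a minority of members passed the test. In the TGF-beta and BMP list 7 of 21 rose and 0 fell, and 4 to 6 rose when 1 array was left out. Bmp4, a bone morphogenetic protein gene, stood at 2.59 and 2.52 at day 5 and 3.92 and 4.00 at day 20 and rose by 1.40 ± 0.25 (adjusted p = 1.58e-05), and Id1, a target of BMP signals, rose by 1.02 ± 0.24 (adjusted p = 0.000735). Grem1, a BMP antagonist, rose by 1.20 ± 0.32 (adjusted p = 0.00326). In the Wnt list Sfrp1, a secreted Wnt antagonist, stood at 3.48 and 3.40 at day 5 and -0.31 and -0.15 at day 20 and fell by 3.68 ± 0.37 (adjusted p = 1.19e-12) or 12.8-fold, and the ligand gene Wnt10a rose by 1.83 ± 0.21 (adjusted p = 9.88e-11). Of 31 growth factor and receptor genes 9 rose and 4 fell (6 to 7 and 0 to 2 when 1 array was left out), and Igf1 fell by 1.31 ± 0.35 (adjusted p = 0.00416), a call lost without day 5 replicate 1. Itm2a, a membrane protein gene, fell by 3.53 ± 0.57 (adjusted p = 1.29e-06). Immediate early genes rose in 7 of 15, or in 4 to 5 when 1 array was left out, among them the stress factor gene Atf3 by 1.63 ± 0.23 (adjusted p = 7.68e-08) and Ier3 by 1.59 ± 0.21 (adjusted p = 6.99e-09). Stress genes followed in part: Hspa1a, an inducible heat shock protein gene, rose by 1.84 ± 0.45 (adjusted p = 0.00137) and the metallothionein genes Mt2 and Mt1 by 1.59 ± 0.26 (adjusted p = 1.68e-06) and 1.18 ± 0.19 (adjusted p = 2.42e-06). In the BCL2 family Bok, a death-promoting member, rose by 1.62 ± 0.24 (adjusted p = 3.06e-07), and Bcl2, the survival gene, fell by 0.68, a call lost without day 20 replicate 2 (adjusted p = 0.0554).

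Few genes of the housekeeping lists passed the test. Among 29 ribosomal protein genes 1 rose, with a median of 0.16, and among 29 proteasome genes 2 rose, with a median of 0.16; 0 fell in either. When 1 array was left out, 0 to 1 rose in each. Of 30 skeletal muscle genes 1 rose and 0 fell (median -0.31), and the mean level of the list was 3.61 and 3.62 at day 5 and 3.33 and 3.32 at day 20. The part of leg muscle in these values was not tested.

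The change in nfsa was set against the change over the same days in the radiation-induced fibrosarcoma. The difference was called for 724 genes in the higher and 863 in the lower direction of 12958 (12.2% in all, 5.59% and 6.66%). Leaving out 1 of the 8 arrays left 446 to 529 and 506 to 653. For hypoxia genes the median difference was -0.19, with 1 called higher and 2 lower (0 to 1 and 1 to 2 when 1 array was left out). In the radiation-induced tumour itself 21 of the 22 rose and 1 fell, where 44.9% of all genes were called (28.0% risen and 16.9% fallen). For mitosis genes 0 of 40 differences were called by limma and 0 had an unadjusted p under 0.05, with a median of 0.09, and 36 of 40 rose in that tumour's own comparison. Cholesterol synthesis had 0 of 17 called differences (1 higher and 2 lower at an unadjusted p under 0.05 by limma, median -0.08) and endothelial genes 1 lower of 20 (median -0.33), or 0 whichever of the 8 arrays was left out. A difference that missed the threshold does not show that the tumours changed alike: for Car9 it was 0.14 ± 0.45 (adjusted p = 0.892), for Cdc20 0.20 ± 0.25 (adjusted p = 0.691) and for Ncr1 0.60 ± 0.43 (adjusted p = 0.408).

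The fibrosarcomas differed in interferon, antigen presentation and mast cell genes. Of 38 interferon-stimulated genes 21 had a called difference, all higher in nfsa, with a median of 1.14, and 12 to 15 were called higher when 1 of the 8 arrays was left out. In nfsa 5 of the 38 were called, whereas 34 of 38 fell in the radiation-induced tumour with a median of -1.02. Rsad2 changed by 2.12 in nfsa and -0.10 in the radiation-induced tumour, a difference of 2.22 ± 0.58 (adjusted p = 0.00566). MHC class II genes gave 6 called differences of 10, all higher in nfsa, where 10 of 10 fell in the radiation-induced tumour. Ciita changed by -1.16 and -3.52, a difference of 2.36 ± 0.53 (adjusted p = 0.00107). Of 9 mast cell genes 5 were called higher in nfsa. Mcpt4 changed by 2.32 in nfsa and -0.32 in the radiation-induced tumour, a difference of 2.64 ± 0.50 (adjusted p = 8.42e-05), and Cpa3 by 2.23 and -0.96, a difference of 3.19 ± 0.61 (adjusted p = 9.85e-05). Il6 differed by 2.08 ± 0.50 (adjusted p = 0.00223) and F3 by 1.43 ± 0.31 (adjusted p = 0.00072). Of 19 neutrophil and inflammation genes, however, 1 difference was called higher in nfsa and 4 lower, with a median of -0.17. In the radiation-induced tumour 13 of the 19 rose and 1 fell, with a median change of 1.91, against 1.16 in nfsa. T and NK cell genes gave 3 differences of 21, all higher in nfsa (1 to 2 when 1 array was left out), and 20 of 21 fell in the radiation-induced tumour. Skeletal muscle genes, which mark the host leg, had a median change of -0.31 in nfsa and -1.45 in the radiation-induced tumour, and their part in these differences was not tested.

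Signalling genes of the BMP pathway parted as well, with 7 of 21 in the TGF-beta and BMP list called higher in nfsa and 1 lower, and 3 to 5 called higher when 1 array was left out. Bmp4 changed by 1.40 in nfsa and -1.09 in the radiation-induced tumour, a difference of 2.49 ± 0.36 (adjusted p = 3.74e-07), and Id1 differed by 2.15 ± 0.37 (adjusted p = 1.83e-05). For Id1, 1 of the days in the radiation-induced tumour had a value on 1 array only. Its difference ran from 1.97 to 3.06 over the settings. The BMP antagonist Grem1 went the other way, with 1.20 in nfsa, 3.83 in the radiation-induced tumour and a difference of -2.63 ± 0.45 (adjusted p = 1.26e-05). Vegfa rose less in nfsa than in the radiation-induced tumour (2.83), by -1.51 ± 0.39 (adjusted p = 0.00455), a call lost without day 20 replicate 1 of the radiation-induced tumour (adjusted p = 0.053). Among p53 targets 3 were called higher and 4 lower in nfsa (median -0.01), with 2 to 3 lower when 1 array was left out. Trp53inp1 changed by 1.16 in the radiation-induced tumour, a difference of -1.27 ± 0.17 (adjusted p = 6.91e-08). Psrc1 differed by -1.14 ± 0.28 (adjusted p = 0.00242).

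Against the mean change of the carcinomas mmca, mca4 and nrs1, 1440 genes were called higher and 1265 lower in nfsa of 12917 (20.9% in all, 11.1% and 9.79%). Without day 5 replicate 1 of nfsa 912 were called higher. Hypoxia genes were called higher in 20 of 22 (median difference 1.44), mitosis genes in 37 of 40 (1.26), cholesterol synthesis genes in 12 of 17 (0.89) and neutrophil and inflammation genes in 10 of 19 (1.13). T and NK cell genes were called lower in 15 of 21 (-1.93) and endothelial genes in 13 of 20 (-1.34). The carcinomas were not of one kind. In nrs1 34 of 40 mitosis genes rose and 0 fell, where 35.7% of all genes were called (24.5% risen and 11.2% fallen), whereas in mmca and mca4 37 and 35 fell and 0 rose, where 8.43% and 15.5% of all genes were called (4.10% and 8.11% fallen, 4.32% and 7.37% risen). Cdc20 changed by 1.31 in nfsa, 0.60 in nrs1, -1.09 in mmca and -0.99 in mca4. In nrs1 14 of 22 hypoxia genes rose and 2 fell, and 11 of 17 cholesterol synthesis genes rose and 1 fell. In mmca and mca4 0 and 1 hypoxia genes rose, 1 and 4 fell, and 0 cholesterol synthesis genes were called. Endothelial genes fell in 9 of 20 in nrs1, where 1 rose, and in 0 in mmca and mca4, where 1 rose in each. T and NK cell genes fell in 5 of 21 in nrs1 and in 2 in each of the others, where 2 and 1 rose.

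Car9 changed by 3.04 in nfsa and by 1.28, -0.20 and -1.06 in nrs1, mmca and mca4, and its difference from their mean was 3.03 ± 0.37 (adjusted p = 8.52e-10). Ncr1 changed by -4.24 in nfsa and -0.78, -1.04 and -1.16 in the same order, a difference of -3.25 ± 0.35 (adjusted p = 1.91e-11). Pecam1 gave -1.83 against -0.32, 0.33 and -0.01, a difference of -1.83 ± 0.36 (adjusted p = 7.25e-05). For Sqle the difference was 2.30 ± 0.29 (adjusted p = 3.65e-09), and for Ephx1, whose change passed the test in none of the 3 carcinomas, it was -1.59 ± 0.22 (adjusted p = 2.72e-08). Skeletal muscle genes had median changes of 1.16 in mmca, 1.95 in mca4 and 0.63 in nrs1, and their part in these differences was not tested. The labels do not say how large each tumour was or whether it was shrinking or growing back at day 20.

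**Figure D3:**
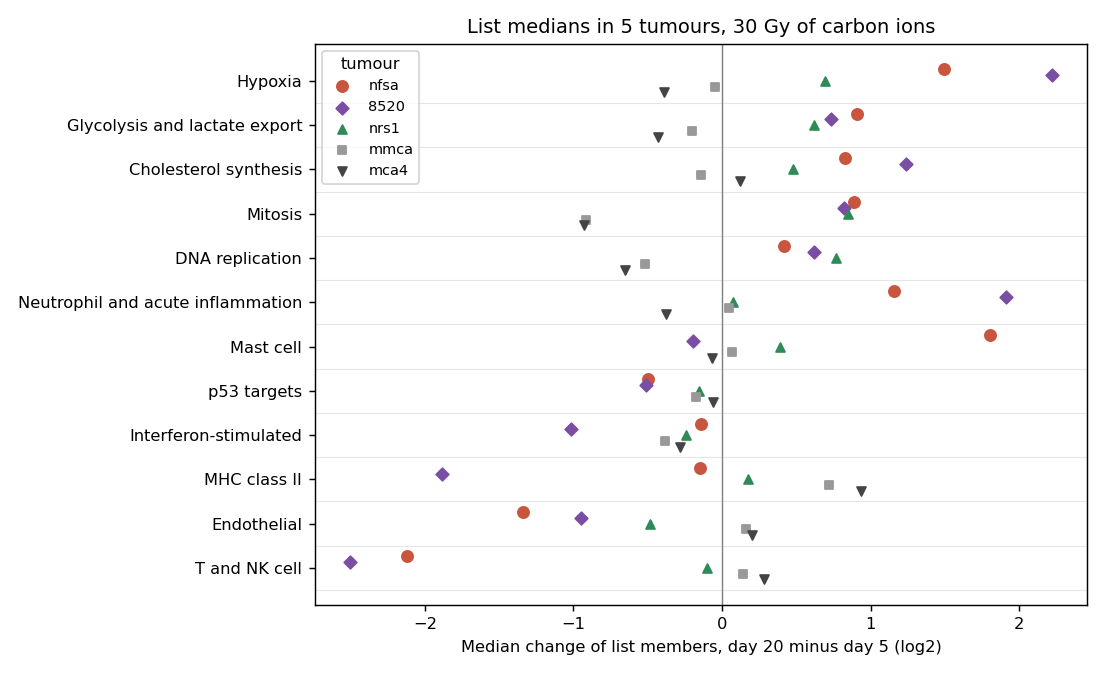
Median change from day 5 to day 20 (log2) of the members of 12 gene lists in 5 tumours after 30 Gy of carbon ions; each symbol is a tumour (2 arrays a day), with the radiation-induced fibrosarcoma as purple diamonds. nfsa lies beside the radiation-induced tumour for mitosis (0.89 and 0.82) and p53 targets (-0.50 and -0.51), and apart from it for mast cell (1.81 and -0.19), interferon-stimulated (-0.14 and -1.02) and MHC class II genes (-0.15 and -1.89).

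The gamma-ray arrays of nfsa show the same genes in the same tumour at other doses and times. They belong to another experiment, so beam, day and experiment cannot be told apart, and the values are set side by side without a test between them. From day 4 to day 9 after 30 Gy of gamma rays (3 arrays each), 18 of 21 tested hypoxia genes rose and 2 fell, where 21.8% of all genes were called (12.6% risen and 9.28% fallen). Of 21 T and NK cell genes 12 fell and 0 rose, and of 20 endothelial genes 15 fell and 1 rose. Mitosis genes rose in 13 of 40, and mast cell genes in 2 of 9. Interferon-stimulated genes fell in 31 of 38, against 4 of 38 in the carbon comparison.

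Car9 was at 3.26 ± 0.11 (SD, n = 2) without irradiation, 1.82 to 2.12 (3 arrays) at day 4 and 6.39 ± 0.89 (n = 3) at day 9 of the 30 Gy gamma arrays, then 2.14 ± 0.48 (n = 3) at day 9 after 50 Gy. The carbon arrays stood at 3.38 and 3.38 at day 5 and at 6.50 and 6.34 at day 20, so day 20 lay within the range of the 30 Gy day 9 arrays (5.48 to 7.27). Bnip3 at carbon day 20 (6.88 to 7.03) also lay above its unirradiated level of 5.37 ± 0.08 (n = 2). Slc16a3 at carbon day 20 (4.14 to 4.29) lay beside its unirradiated level of 4.20 ± 0.08 (n = 2). Ncr1 was at 0.56 ± 0.12 (n = 2) without irradiation and at 3.72 ± 0.57 (n = 3) and 1.46 ± 0.07 (n = 3) at days 4 and 9 after 30 Gy. Its carbon day 5 arrays, at 5.10 and 5.18, were the highest of the 24 nfsa arrays, and its day 20 arrays lay above the unirradiated ones. Gzma followed a like course, from 1.40 ± 0.09 (n = 2) without irradiation to 7.07 ± 0.75 (n = 3) and 3.81 ± 0.16 (n = 3).

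Cdc20 was at 5.07 ± 0.16 (n = 2) without irradiation, above both carbon days, and at 3.94 ± 0.06 (n = 3) at day 9 after 30 Gy of gamma rays. Cdkn1a was at 4.33 ± 0.57 (n = 2) without irradiation and at 7.26 ± 0.16 (n = 2) at day 1 after 30 Gy, and both carbon days lay between these means. Mcpt4 at carbon day 20 (2.94 and 3.01) lay above all gamma arrays but 1 of day 9 after 50 Gy (3.75).

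**Figure D4:**
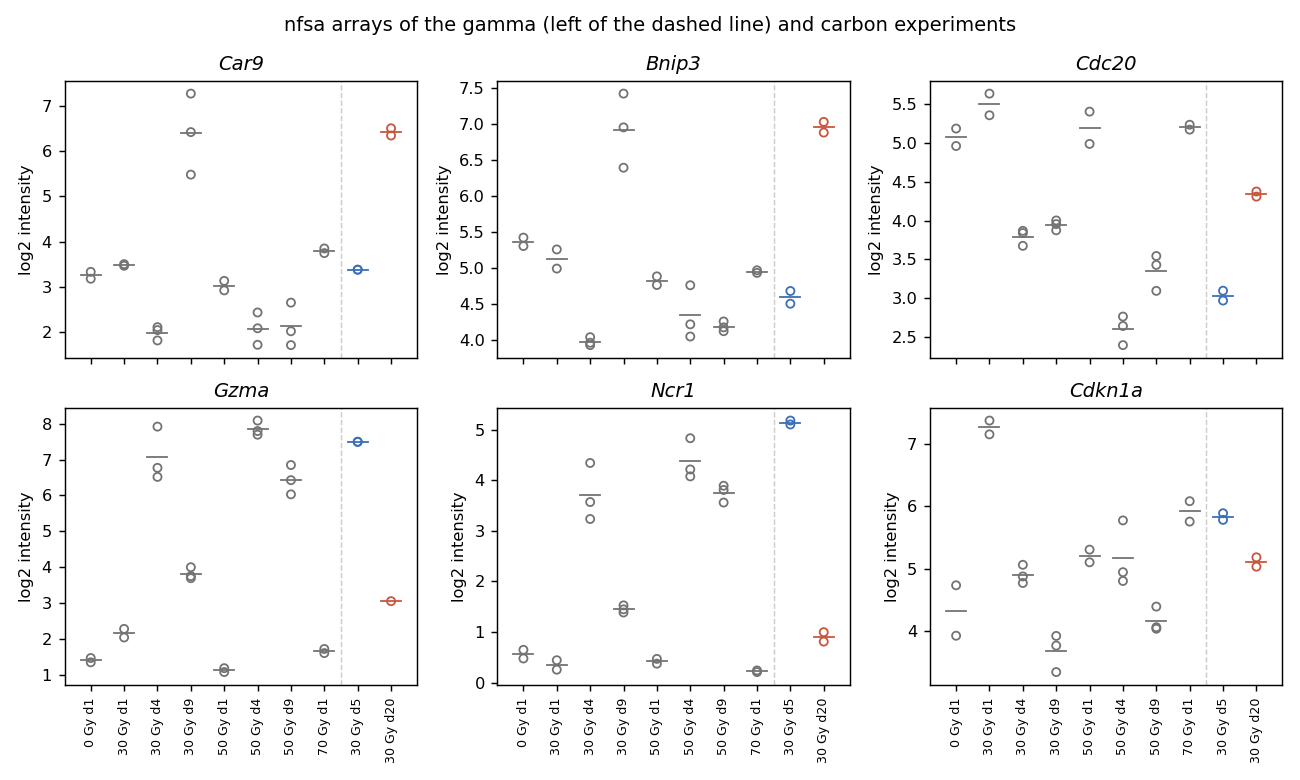
Level (log2 intensity) of Car9, Bnip3, Cdc20, Gzma, Ncr1 and Cdkn1a on all nfsa arrays with a value; circles are arrays, bars group means, grey the gamma and coloured the carbon experiment, with dose and day (d) below. Car9 and Bnip3 are high in the 30 Gy gamma group of day 9 and at carbon day 20, and Gzma and Ncr1 at days 4 and 5 and at day 9 after 50 Gy.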

How the data were processed

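RNA of tumours was labelled with Cy5 and hybridised to 1-colour CodeLink arrays, per the labels' protocols. The values deposited by the authors are linear intensities with a median near 1 on each array, and how they were scaled is not given in the sources used here. Of 36227 probes, 21615 had 1 gene symbol, 681 several and 13931 none. Intensities were floored at 0.1269 (the 5th percentile) and taken as log2. Probes with a value on at least 90% of arrays and a mean above the 20th percentile were kept, with the probe of highest mean for each gene (12962 genes). A model with 54 group means was fitted to all 121 arrays with limma 3.58.1 in R 4.3.3 (eBayes with trend, 67 residual degrees of freedom), and p-values were adjusted by Benjamini-Hochberg over all genes. A difference between tumours is a contrast of changes. Plots were made in Python 3.11.15 (matplotlib 3.10.9).

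The comparison and the gene lists were chosen with earlier results of these data known. Genes named are the 12 largest rises and falls with non-overlapping arrays, up to 4 called members of each list, the 6 largest differences each way, and a few preset genes. Genes without a well-known function were passed over, and other list members are named from their list. In simulated data, 40 genes were changed at each size and all other changes from day 5 to day 20 were removed. The noise was independent between genes. In the real data 19.9% of genes were called, so the rates below need not carry over. The fit was tested on such simulated data of the first comparison over 12961 genes. It recovered 100% of changes of 2, 75% of changes of 1 and 27.5% of changes of 0.5 (85% and 42.5% for -1 and -0.5), and 3.65% of its calls were unchanged genes. For the difference from the radiation-induced fibrosarcoma (12958 genes) it recovered 100% of changes of 2, 62.5% and 60% of changes of 1 and -1, and 2.5% and 20% of changes of 0.5 and -0.5, with 7.55% of calls unchanged genes. For the difference from the carcinomas (12917 genes) it recovered 100% of changes of 2, 72.5% and 77.5% of changes of 1 and -1, and 17.5% and 37.5% of changes of 0.5 and -0.5, with 3.94%. The number of arrays limits the precision. Alternatives covered scaling, filters, floor, missing values, the arrays fitted, a replicate block and leaving out each array. No column of the value table was left unused (0).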

Additional observations from a re-analysis of the deposited data

Results flagged for a closer look

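Genes are listed here because the change from day 5 to day 20 in nfsa differed from that in another tumour by the test of the difference itself (a limma contrast with Benjamini-Hochberg adjustment). No explanation was tested for any of them, and all carry the direction nfsa minus the other tumour on the log2 scale.

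Against the mean of the 3 carcinomas, the largest positive differences were in Sprr1a, a gene of the skin barrier (4.69), the growth factor gene Pgf (3.60), Mgarp (3.57), the platelet chemokine gene Ppbp (3.43), Stc2 (3.19) and the arginase gene Arg1 (3.14). For Stc2, a day in a carcinoma had a value on a single array only, and the difference ran from 2.93 to 3.75 over the settings. The largest negative ones were in the NK receptor genes Klra3 (-4.37), Klre1 (-3.99) and Klrd1 (-3.93), the dendritic cell lectin gene Cd209a (-4.26), the Wnt antagonist gene Sfrp1 (-4.13) and Itm2a (-3.90).

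Against the radiation-induced fibrosarcoma, the largest positive differences were in Bad (4.11), a death-promoting gene of the BCL2 family, Atoh8 (3.90), a transcription factor gene, Ly6f (3.60), Serping1 (3.44), the C1 inhibitor of complement, Serpina3n (3.41), an acute phase gene, and Myl2 (3.28), a myosin light chain gene of muscle. Several of these rest on the change in that tumour: Bad changed by 0.06 in nfsa and -4.05 in that tumour, and Serping1 by 0.01 and -3.43. For Bad, a day in the radiation-induced tumour had a value on a single array only. The Bad difference was 2.05 (adjusted p = 0.0373) with missing values at the floor and quantile normalization. The Serping1 call was lost with missing values at the floor and quantile normalization (adjusted p = 0.127), and that of Myl2 reached an adjusted p of 0.105. The largest negative differences were in Igsf5 (-5.44), Dynap (-4.44), the protease-like gene Prss35 (-4.38), the exchange factor gene Rasgrf1 (-4.23), the urea transporter gene Slc14a1 (-3.74) and Igsf9 (-3.48).

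Among genes described above, the difference from the radiation-induced fibrosarcoma was 3.19 for Cpa3, 2.64 for Mcpt4 and 2.24 for Mcpt2 (mast cells), 2.36 for Ciita and 2.22 for Rsad2 (antigen presentation and interferon response), and 2.08 for Il6 and 1.43 for F3 (inflammation and clotting). It was 2.49 for Bmp4 and 2.15 for Id1, and -2.63 for Grem1, -3.46 for Cnn1, -1.51 for Vegfa, -1.27 for Trp53inp1 and -1.14 for Psrc1. Il6 does not stand for its group, since of 19 neutrophil and inflammation genes 1 difference was called higher in nfsa and 4 lower.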

How the results depend on the processing

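The counts of genes called moved most with the arrays that shared the estimate of spread. Fitted on the carbon arrays alone, 2947 genes rose and 2159 fell, with 1903 higher and 2162 lower against the radiation-induced fibrosarcoma and 2844 and 2592 against the carcinomas. Fitted on the arrays of each comparison alone, the same counts were 3576 and 2298, 2077 and 2348, and 2435 and 2225. With missing values at the floor and quantile normalization 1020 rose and 1020 fell, and Mmp12 reversed to -0.3109 (and to -0.6871 against the carcinomas). The calls of Orc1, Bbc3, Oas2, Cdh1, Brca2, Col8a2, Wnt10a and Mt1 were lost there, and Zmat3 and Gzma moved to -5.17 and -7.93. The cause was not tested. Quantile normalization alone gave 1171 risen and 1058 fallen, and centring arrays on their median 1351 and 1261. Leaving out 1 array gave 861 to 1047 risen and 627 to 651 fallen, 446 to 529 higher and 506 to 653 lower against that fibrosarcoma, and 912 to 1430 and 866 to 1266 against the carcinomas. With the replicate number as a block 1641 rose and 1058 fell, with 755 and 907 called against that fibrosarcoma and 1487 and 1323 against the carcinomas. The replicate differences of day 5 and day 20 correlated at 0.022, so the numbers show no pairing. Of 161 named genes, 149 kept their call and direction, or stayed uncalled whatever their direction, under quantile normalization. With missing values at the floor as well the number was 138, and without 1 array it was 133 to 142. Against the other fibrosarcoma, 30 of 45 called named genes kept their call in all settings, and against the carcinomas 100 of 124. With 2 arrays a day, changes near 0.5 were often missed in the simulated data.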
